A study of Arabidopsis thaliana with 108 samples.

Results

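Telomere repeat binding factors TRB1, TRB2 and TRB3 shared 3846 regions of the Arabidopsis genome that carried H3K4me3 in wild-type seedlings and had neither H3K27me3 nor the demethylase JMJ14. The regions were chosen from the deposited peak lists alone. A TRB1 region was a stretch under peaks in at least 2 of the 4 FLAG-TRB1 lists, with stretches up to 100 bp apart joined and a width of at least 100 bp, and TRB2 and TRB3 regions were made alike. Of 20625 TRB1 regions on chromosomes 1 to 5, 9229 overlapped both a TRB2 and a TRB3 region, 7077 of these had no peak in either FLAG-JMJ14 list, 4123 of those had an H3K4me3 peak in both Col-0 lists, and 3846 of those had no H3K27me3 peak in either Col-0 list. They were 41.7% of the regions shared by the TRBs and 18.6% of all TRB1 regions. They are called the TRB-H3K4me3 regions here, and the protein-coding genes whose start sites lay nearest to them, within 1000 bp, the TRB-H3K4me3 genes. Peaks of TRBs and JMJ14 and both Col-0 marks thus selected the regions, and values of these lists at the regions are given as description, without a test.

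TRBs are plant proteins with a Myb-type DNA-binding domain that recognises the telomere repeat, and they bind copies of that repeat inside chromosomes, called teloboxes, as well as telomeres. They interact with Polycomb Repressive Complex 2, which writes H3K27me3 at silent genes, and with JMJ14, a JmjC-domain enzyme that removes H3K4 methylation. H3K4me3 marks the first nucleosomes of transcribed genes. In plants, teloboxes are known from promoters of ribosomal protein genes and other genes of the translation machinery, where they often stand near a second element, site II.

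The study asked how TRBs act on H3K27me3 and H3K4me3. FLAG-TRB1, FLAG-TRB2, FLAG-TRB3 (4 libraries each) and FLAG-JMJ14 (2 libraries) were expressed from their own promoters, the TRB transgenes in the mutant of the same TRB, and were profiled by ChIP-seq in floral tissue of 5 to 6 weeks. Seedlings of 2 to 3 weeks gave H3K4me3 of the trb1/2/3 triple T-DNA mutant (2 libraries), of jmj14-1 (1 library) and of Col-0 (2 libraries), and H3K27me3 of trb1/2/3 and Col-0 (2 libraries each). TRB-ZF lines, in which a TRB is fused to the artificial zinc finger ZF108 that was built to bind the FWA promoter, were compared with their background, the fwa epiallele line, in which FWA is unmethylated and active. H3K4me3 was deposited for TRB1-ZF (3 libraries), TRB2-ZF, TRB3-ZF (2 each) and fwa (3), and H3K27me3 for 2 libraries of each. The labels give floral tissue of 5 to 6 weeks for these, while the methods of the study name leaves. Myc-JMJ14 was profiled in leaves of 3 to 4 weeks in 2 libraries with TRB1-ZF, in 1 each with TRB2-ZF and TRB3-ZF and in 1 without a TRB-ZF transgene. All plants are of the Col-0 ecotype. Nothing in the labels says that libraries of a group came from separate plants, so p values measure the spread between these libraries, which may be technical.

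The lists held 3279 to 22509 peaks for the FLAG-TRBs, 5132 and 5565 for FLAG-JMJ14, 16030 to 17764 for H3K4me3, 10198 to 14323 for H3K27me3 and 296 to 1032 for Myc-JMJ14. They carry no read counts, so depth is unknown, and a missing peak means that none was called. The H3K27me3 lists labelled TRB1-ZF replicate 2 and TRB2-ZF replicate 2 were identical, that is, 1 list under 2 labels. For 4 of the 5 Myc-JMJ14 libraries the name of the deposited list and the label disagree on the background, and the label was followed. The bound TRBs were measured in older plants than the marks of Col-0, so that both need not occur in the same cells. Other classes of shared TRB regions serve for comparison. They are 585 regions with H3K27me3 in both Col-0 lists and no H3K4me3 or JMJ14 peak, 2152 regions with a JMJ14 peak, and 1921 regions with no peak of JMJ14 or of either Col-0 mark, called unmarked.

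Teloboxes at the 8 TRB-H3K4me3 regions with the strongest TRB peaks, by mean rank of fold enrichment over the 12 FLAG-TRB lists, show the element that most of these regions hold. Each line gives 30 bases of the RefSeq sequence of TAIR10.1, 5′ to 3′ on the strand that reads the repeat, around the TTAGGG nearest the TRB1 summit, with TTAGGG in capitals.

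AT3G11940, RPS5A, chr3:3779504-3779533, minus strand: aaaggagtgacaTTAGGGtttttgttcgtc

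AT5G15200, chr5:4936422-4936451, minus strand: gagagtgtagcgTTAGGGttttaagaaatc

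AT1G10490, chr1:3453165-3453194, plus strand: ccgatggttgacTTAGGGcgcgcttctctg

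AT5G65400, chr5:26131385-26131414, plus strand: acaagcgatatgTTAGGGcacaaggacaat

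AT5G13020, EML3, chr5:4132812-4132841, minus strand: actgagaaaaaaTTAGGGcacaaaataatg

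AT1G47490, RBP47C, chr1:17424632-17424661, minus strand: tttaggtcgaaaTTAGGGgttttaatccgg

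AT5G47010, LBA1, chr5:19071895-19071924, minus strand: agagagttagggTTAGGGttatgtatgcgc

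AT3G56720, chr3:21011045-21011074, minus strand: ggggaaataaagTTAGGGttccaaggaaga

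The LBA1 site held the repeat as a pair of adjoining copies, and at RPS5A, AT5G15200, LBA1 and AT3G56720 the repeat ran on into T. Of these 8 genes, RPS5A and AT5G15200 encode proteins of the small ribosomal subunit. LBA1 encodes the UPF1 helicase of nonsense-mediated mRNA decay, AT3G56720 is annotated as a pre-mRNA splicing factor, RBP47C is an RNA-binding protein, AT1G10490 is annotated as a GNAT acetyltransferase, and AT5G65400 as a hydrolase of the alpha/beta fold.

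RPS5A had the strongest mean rank. Its region spanned chr3:3779136-3779774, 639 bp wide, with the mean TRB1 summit 20 bp behind the start site, in the 5′ UTR. The fold enrichment of its peak over background was 5.91, 5.89, 4.77 and 4.52 in the 4 FLAG-TRB1 lists, 8.90, 7.54, 6.91 and 5.77 in the FLAG-TRB2 lists, and 5.82, 7.26, 4.54 and 5.70 in the FLAG-TRB3 lists. Every one of these exceeded the median of the TRB-H3K4me3 regions with a peak in its list, which lay between 2.26 and 3.17. H3K4me3 peaks covered 491 and 467 bp of the RPS5A region in trb1/2/3 and 463 and 483 bp in Col-0, and no H3K27me3 list had a peak there. The region of AT5G15200, chr5:4936071-4936692, had peaks in all 12 lists with folds of 4.62 to 7.98, and its H3K4me3 peaks covered 531 and 415 bp in trb1/2/3 and 495 and 421 bp in Col-0. The LBA1 region, chr5:19071611-19072279, had folds of 4.70 to 7.00. The widest region of the 8, 1258 bp at EML3, a gene for a plant Tudor-like protein with an EMSY N-terminal domain, had folds of 4.45 to 8.67.

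TRB-H3K4me3 regions were broad and sat on gene starts. Their width ranged from 150 to 2388 bp with a median of 639 bp (quartiles 507 and 809), against medians of 328 bp for regions with H3K27me3, 689 bp for regions with JMJ14, 401 bp for unmarked regions and 435 bp for all TRB1 regions. The narrowest lay at the homeobox gene BLH1 (150 bp), at BKI1, an inhibitor of the brassinosteroid receptor (196 bp), and at TEM1, a repressor of flowering (200 bp). No stretch under 100 bp met the remaining criteria, so the width limit removed no region. Just outside the selection by marks lay 240 regions with H3K4me3 in only 1 Col-0 list and 277 with H3K4me3 in both and H3K27me3 in 1 or 2. All chromosomes contributed, with 1032, 563, 831, 526 and 894 regions on chromosomes 1 to 5, or 28.3 to 35.4 per Mb.

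The mean TRB1 summit lay in a promoter, within 1000 bp before a gene, at 1819 regions (47.3%) and in a 5′ UTR at 1717 (44.6%). Exons beyond the UTRs held 186 summits (4.84%), introns 66, 3′ UTRs 32, and 17 lay far from any gene. Promoters and 5′ UTRs together held 91.9% of the summits (95% Wilson interval 91.0 to 92.8, which like all intervals over regions here covers counting error only). The share was 51.8% for regions with H3K27me3, a difference of 40.1 percentage points (Newcombe interval 36.0 to 44.3). It was 52.7% for regions with JMJ14, a difference of 39.2 points (36.9 to 41.5), and 44.9% for unmarked regions, a difference of 47.1 points (44.7 to 49.4). H3K4me3 itself lies at gene starts and was a criterion of the choice, so the position of TRB summits and the choice by H3K4me3 cannot be told apart in these differences.

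A protein-coding start site lay within 1000 bp of the summit at 3656 regions, and 190 had none. The 3656 belonged to 3649 TRB-H3K4me3 genes, since 7 genes had more than 1 region. The summits clustered just behind the start site, with a median of 50 bp into the gene (quartiles -24 and 128), 2995 (81.9%) within 200 bp, and 1143 (31.3%) upstream. Bound TRB2 and TRB3 centred on the same place. The median distance of the mean summits was 21.3 bp between TRB2 and TRB1, 23.3 bp between TRB3 and TRB1 and 19.3 bp between TRB3 and TRB2, and 85.2 to 88.2% of the distances were at most 100 bp. A divergent neighbour, with its start site within 1000 bp upstream on the other strand, stood beside 23.8% of TRB-H3K4me3 genes (22.4 to 25.2) and 24.3% of all H3K4me3-marked genes.

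Along TRB-H3K4me3 genes, TRB peaks were commonest 50 to 100 bp behind the start site in each of the 12 lists, where they covered between 19.6% of the genes (TRB3 replicate 1, the shortest list) and 96.7% (TRB1 replicate 3). H3K4me3 peaks were commonest farther downstream, 350 to 450 bp into the gene in the 15 lists, at 93.9 to 97.7% of the genes. At the start site itself, H3K4me3 peaks covered 64.2 and 38.1% of TRB-H3K4me3 genes in trb1/2/3, 60.1% in jmj14-1 and 57.4 and 29.4% in Col-0. The TRB1 summit lay under an H3K4me3 peak at 77.1 and 61.6% of the regions in trb1/2/3, 75.8% in jmj14-1 and 74.8 and 54.6% in Col-0. TRB peaks thus lay at the upstream edge of the H3K4me3 peaks, and replicates of 1 genotype differed more than the genotypes did.

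**Figure D1:**
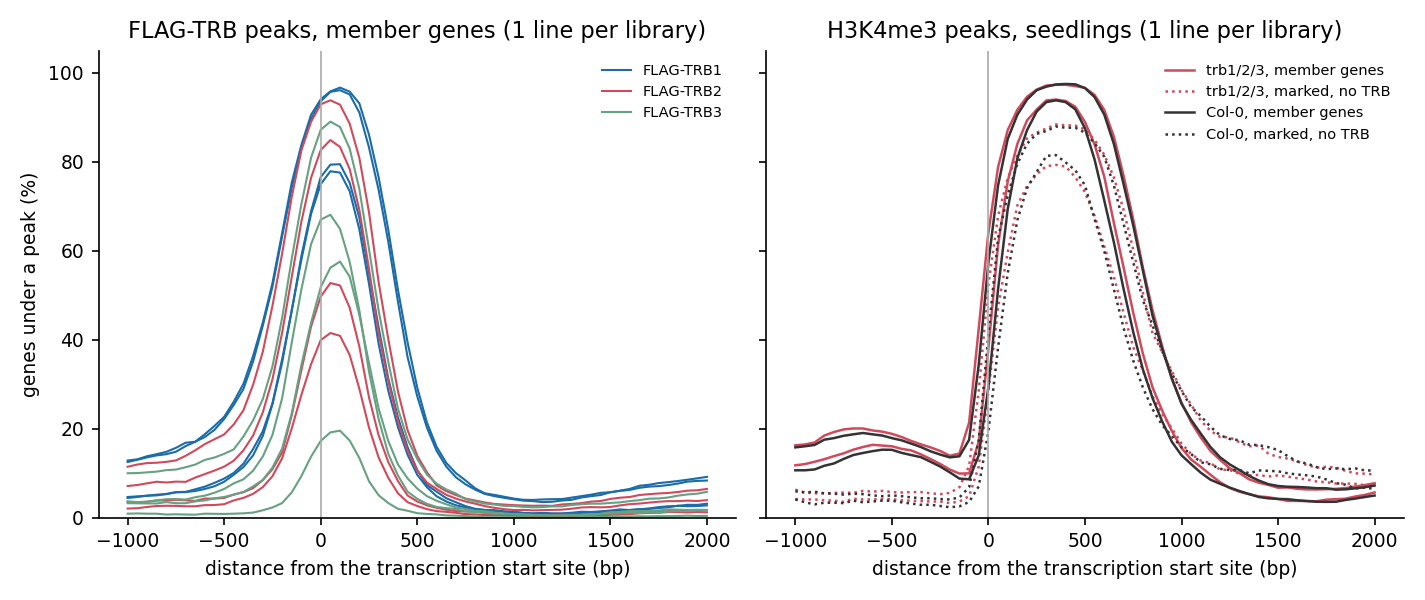
Share of genes under a peak (%, vertical axis) by distance from the transcription start site (bp, horizontal axis), 1 line per library. On the left are FLAG-TRB peaks at TRB-H3K4me3 genes (titled member genes), highest 50 to 100 bp behind the start site, and on the right H3K4me3 peaks of trb1/2/3 (red) and Col-0 (black) seedlings at these genes (solid) and at marked genes with no TRB or JMJ14 peak (dotted), highest at 350 to 400 bp in the 4 libraries.

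The telobox was the element shared by most TRB-H3K4me3 regions. TTAGGG, searched on both strands, occurred in 2430 of the 3846 regions (63.2%, 61.6 to 64.7), against 44.3% of regions with H3K27me3, 66.8% of regions with JMJ14, 27.7% of unmarked regions and 34.9% of all TRB1 regions. The difference was 18.9 percentage points from regions with H3K27me3 (14.6 to 23.2), -3.64 points from regions with JMJ14 (-6.13 to -1.12) and 35.4 points from unmarked regions (32.9 to 37.9). Wide regions hold more matches by their length. In equal windows of 200 bp around the mean TRB1 summit, the share was 40.3% at TRB-H3K4me3 regions. The difference shrank to 4.89 points from regions with H3K27me3 (35.4%, interval 0.644 to 8.97), and its interval included 0 for regions with JMJ14 (40.7%, -2.98 to 2.20). It stayed at 21.8 points from unmarked regions (18.5%, 19.4 to 24.1). TTAGGG was thus more frequent near summits of TRB-H3K4me3 regions than of unmarked regions, and differed by little or nothing measurable from the other classes. Equal windows do not make positions equal. Promoters and 5′ UTRs held 91.9% of TRB-H3K4me3 summits and 44.9% of unmarked ones. The part of position in this and the window differences of other motifs below was not tested.

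One TTAGGG was held by 1552 regions, 2 by 656, 3 by 160 and 4 or more by 62, with none in 1416. The regions with the most were those of AT1G06070, a bZIP transcription factor gene (7 matches in 1879 bp), of AT5G62950, annotated as an Rpb4 core protein of RNA polymerase II (6 in 709 bp), of the uncharacterised genes AT5G27860 and AT4G02040 (6 each), and, with 5, of several genes, among them the homeodomain gene DUO3 and TIF3H1, which encodes subunit h of translation initiation factor 3. A high number did not go with a strong peak in each case. AT5G62950 had folds of 3.58 to 6.83 over the 12 lists, whereas AT4G02040 had no peak in 3 of them and folds of 1.54 to 3.17 in the rest.

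The nearest TTAGGG lay a median of 55 bp from the mean TRB1 summit (quartiles 18 and 159), within 50 bp at 48.1% and within 100 bp at 64.3% of the 2430 regions. It was followed by T at 72.6% of them, by T as the second base at 81.2% and by T as the third at 65.0%, compared with 52.2, 56.8 and 48.7% of all 48456 TTAGGG matches on chromosomes 1 to 5. It was preceded by T at 39.8%, compared with 42.8%, so that the T that completes TTTAGGG, the full plant telomere repeat, was not more frequent at these matches than over the genome. The regions held 3611 matches, 7.45% of those in the genome, in 2.24% of its sequence.

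The telobox had a preferred strand and place at TRB-H3K4me3 genes, and other protein-coding genes showed a like preference at lower density. The nearest match read CCCTAA on the strand of the gene at 1306 of 2323 regions with a gene (56.2%, 54.2 to 58.2). In steps of 50 bp along the genes, CCCTAA was densest 50 to 99 bp behind the start site, with 6.71 matches per 100 TRB-H3K4me3 genes and 1.53 per 100 other protein-coding genes. TTAGGG on the gene's own strand reached 3.84 per 100 in the same step and 3.64 per 100 at 400 to 449 bp, against 0.752 and 1.71 per 100 other genes. Promoters of equal length, from 250 bases before to 50 after the start site, held TTAGGG at 20.9% of TRB-H3K4me3 genes (19.6 to 22.3), 10.96% of other genes (10.6 to 11.4) and 12.3% of all protein-coding genes.

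**Figure D2:**
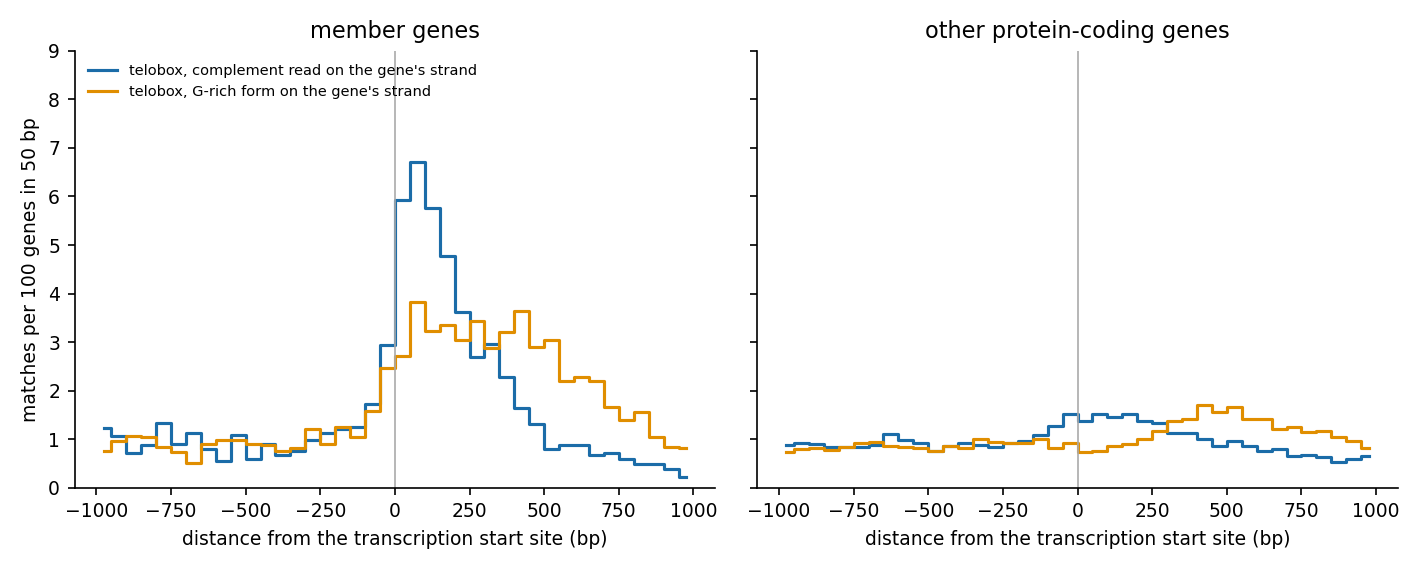
Matches per 100 genes in steps of 50 bp (vertical axis) by distance from the transcription start site (bp, horizontal axis), for TRB-H3K4me3 genes on the left (titled member genes) and other protein-coding genes on the right. The blue line counts the telobox with its C-rich complement on the gene's strand, which peaks at 6.71 per 100 TRB-H3K4me3 genes just behind the start site, and the orange line the G-rich form, which has a second maximum of 3.64 at 400 to 449 bp.

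Site II elements, bound by TCP transcription factors, were also more frequent in these promoters than in all promoters. Promoter shares of motifs were not computed for marked genes alone, so the part of the choice by H3K4me3 was not tested. TGGGCC, searched on both strands, occurred in 32.9% of the 300-base promoters of TRB-H3K4me3 genes (31.4 to 34.5) and in 15.5% of all promoters, and TGGGCT in 27.7% (26.3 to 29.2) and 14.2%. TTAGGG and a site II element stood together in 10.2% of these promoters, compared with 3.49% of all, site II alone in 31.9%, compared with 18.2%, and neither in 47.1%, compared with 69.5%. Within 200 bp of the TRB1 summit, TGGGCC occurred at 24.8% of TRB-H3K4me3 regions. That was 5.15 points above regions with H3K27me3 (1.48 to 8.47) and 10.3 points above regions with JMJ14 (8.21 to 12.3), while the interval of the difference from unmarked regions included 0 (-2.10 to 2.62). TGGGCT, in 20.1% of the windows, was 6.78 points above regions with JMJ14 (4.84 to 8.67), and the intervals of its differences from regions with H3K27me3 (-2.14 to 4.66) and unmarked regions (-3.37 to 1.08) included 0.

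The GA repeat GAGAGAG occurred in 22.9% of the 200 bp windows, which was 8.55 points above regions with H3K27me3 (5.21 to 11.5), 13.3 points above regions with JMJ14 (11.4 to 15.1) and 14.1 points above unmarked regions (12.2 to 15.9). In the 300-base promoters it was found at 13.8% of TRB-H3K4me3 genes and 12.3% of all. The G-box CACGTG, a site of bHLH and bZIP factors, was in 8.61% of windows, with differences of -6.95 points from regions with H3K27me3 (-10.2 to -4.08), -7.64 points from unmarked regions (-9.55 to -5.80) and 2.75 points from regions with JMJ14 (1.39 to 4.06). The palindromic motif of NAC050 and NAC052, partners of JMJ14, was in 23 TRB-H3K4me3 regions (0.598%) and in 25.4% of regions with JMJ14, a class that the choice had removed. Over whole regions, the interval of the difference included 0 against regions with H3K27me3 (-0.599 points, -1.87 to 0.0854). It also did against unmarked regions (0.286 points, -0.132 to 0.628). JMJ14 peaks are absent from both classes too. In the 200 bp windows the difference from regions with H3K27me3 was -0.528 points (-1.59 to -0.0715), from 6 and 4 regions with a match. The window difference from unmarked regions was -0.0522 points (-0.389 to 0.171).

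**Figure D3:**
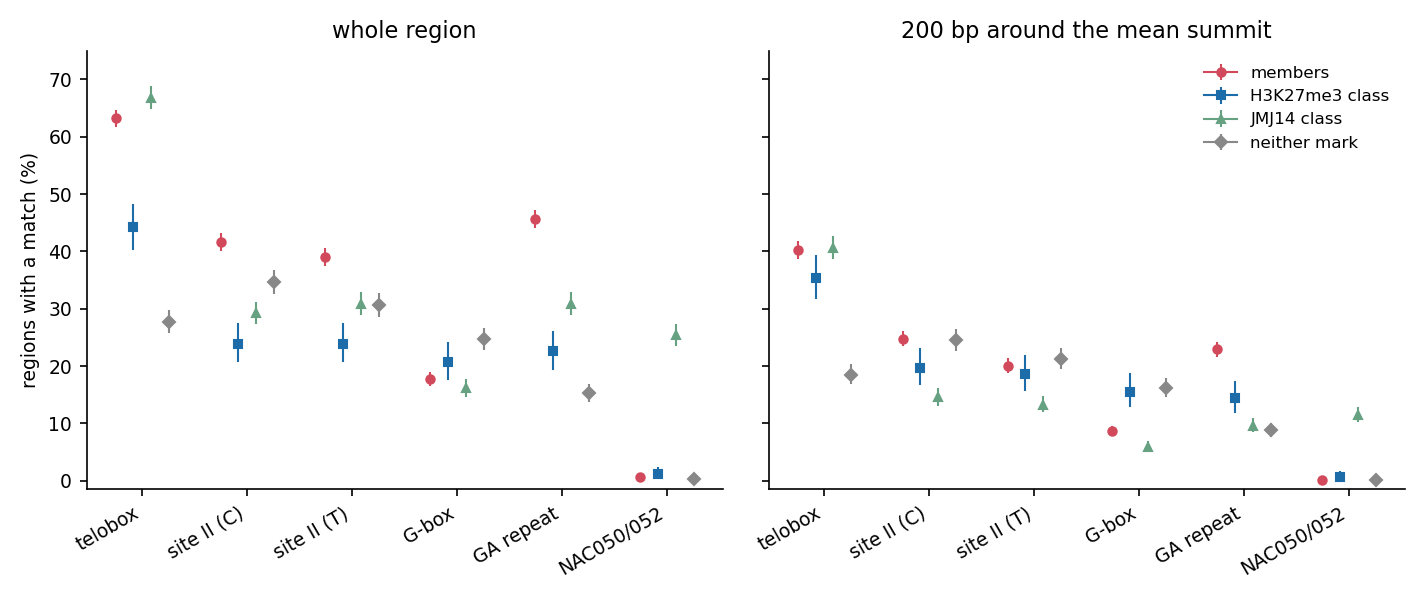
Share of regions that hold a motif on either strand (%, vertical axis) for 6 motifs, in the whole region on the left and in equal 200 bp windows on the right. Points are shares and bars 95% Wilson intervals for TRB-H3K4me3 regions (titled members), regions with H3K27me3, regions with JMJ14 and unmarked regions. The telobox is in 63.2% of TRB-H3K4me3 regions and 40.3% of their windows, and the NAC050/052 motif stands out at regions with JMJ14 only.

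TRB peaks at TRB-H3K4me3 regions come from lists that made the choice, so their strengths are a description. Each region is a TRB1 region, which TRB2 and TRB3 regions need only overlap, so shares with a peak partly favour TRB1 by construction. Medians of fold enrichment here are over the regions with a peak in the list concerned. The median was 3.17, 3.09, 2.98 and 2.90 in the FLAG-TRB1 lists, 2.92, 2.97, 2.52 and 2.84 in the FLAG-TRB2 lists, and 2.98, 2.88, 2.26 and 2.63 in the FLAG-TRB3 lists. A peak was called at 91.2, 90.0, 100 and 100% of the regions in the TRB1 lists, at 55.6, 69.1, 99.0 and 100% in the TRB2 lists and at 27.1, 86.5, 78.0 and 99.97% in the TRB3 lists. Relative to regions with H3K27me3, the median fold was higher in 4 of 4 TRB1 lists and lower in 4 of 4 TRB2 and 4 of 4 TRB3 lists. Only 35.7 and 30.8% of the regions with H3K27me3 had a peak in TRB1 replicates 1 and 2. The medians thus cover unlike parts of the classes. TRB1 gave 2.90 to 3.17 at TRB-H3K4me3 regions and 2.15 to 2.73 at regions with H3K27me3, and TRB3 gave 2.26 to 2.98 and 2.58 to 3.35. The same order held against regions with JMJ14, where TRB1 gave 2.66 to 3.15. In TRB1 replicate 1 the margin was small, 3.17 against 3.15. At unmarked regions all 12 medians were lower than at TRB-H3K4me3 regions.

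The fold also followed the number of teloboxes. Windows of 200 bp held no TTAGGG at 2297 TRB-H3K4me3 regions, 1 at 1330 and 2 or more at 219. Among regions with a peak, the median fold was highest with 2 or more and lowest with none in each of the 12 lists. The ratios between these were 1.14 to 1.35. The share of regions with a peak was larger with 2 or more than with none in 8 of the 12 lists. TRB3 replicate 1 had a peak at 62.6% of the regions with 2 or more, at 39.9% with 1 and at 16.3% with none. In TRB3 replicate 2 these shares were 85.8, 87.6 and 85.9%. TRB peaks were among the criteria of the choice, and these values are a description.

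TRB-H3K4me3 genes were 3649 of the 27444 protein-coding genes (13.3%). Of 14058 genes with H3K4me3 in both Col-0 lists and no H3K27me3 from 500 bp before to 1500 bp behind the start site, called marked genes, 3385 were TRB-H3K4me3 genes (24.1%). Of 18 lists of genes made from the annotated product names, those of the translation and splicing machinery held the largest shares. Ribosomal proteins led with 208 of 343 genes (60.6%, 55.4 to 65.7), and with 194 of 285 among marked genes (68.1%). TTAGGG occurred in the promoters of 88 of these 208 genes (42.3%). Splicing factors followed with 47 of 86 (54.7%), ribosome biogenesis factors with 22 of 49 (44.9%) and translation factors with 52 of 125 (41.6%). Among marked genes their shares were 60.5, 54.3 and 53.1%.

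Smaller shares were those of the proteasome (18 of 56, 32.1%), RNA polymerase subunits (33 of 103, 32.0%), tRNA synthetases (19 of 64, 29.7%) and mitochondrial import and carrier proteins (22 of 79, 27.8%), all above the 13.3% of all genes. Since H3K4me3 was a criterion, shares among marked genes, 24.1% of which were TRB-H3K4me3 genes, are the closer comparison. They were 17 of 51 (33.3%), 29 of 65 (44.6%), 17 of 49 (34.7%) and 21 of 71 (29.6%) in the same order. No intervals were computed for shares among marked genes, and whether these small counts differ from 24.1% was not tested. Genes of DNA replication (12 of 63, 19.0%), pentatricopeptide proteins (47 of 282, 16.7%), homeobox proteins (28 of 209, 13.4%), histones (6 of 49, 12.2%) and light harvesting and photosystems (7 of 60, 11.7%) had intervals that included 13.3%. Among marked genes these lists had shares of 35.5, 19.6, 32.9, 18.8 and 17.4%. Receptor-like kinases (22 of 340, 6.47%), NAC factors (7 of 112, 6.25%), F-box proteins (34 of 653, 5.21%), MADS-box factors (6 of 121, 4.96%) and cytochromes P450 (2 of 248, 0.806%) lay below it. Many genes of these last lists were unmarked in seedlings, and among marked genes alone the shares, beside 24.1% of all marked genes, were 16.1% of receptor-like kinases, 7 of 28 NAC factors, 19.5% of F-box proteins, 37.5% of MADS-box factors (6 of 16) and 1.75% of cytochromes P450. The lists are named by annotation and overlap in part, and these shares are descriptions.

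**Figure D4:**
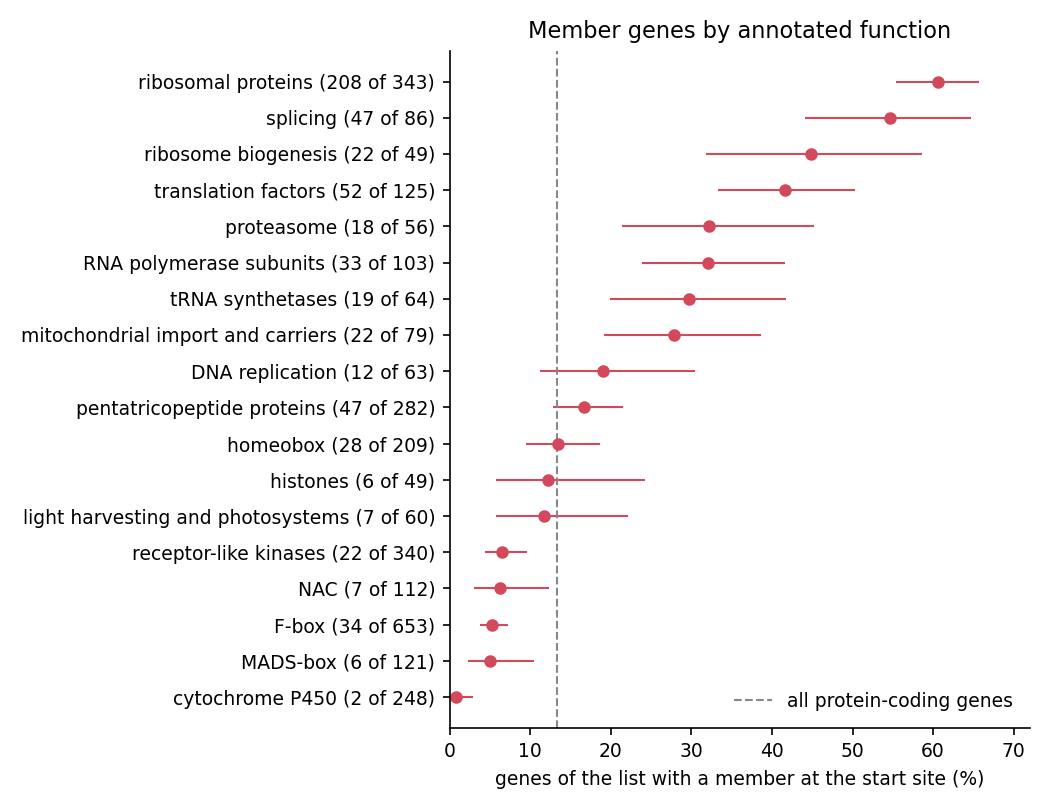
Share of the genes of 18 annotation lists that are TRB-H3K4me3 genes (%, horizontal axis), with the counts beside the list names. Points are shares, bars 95% Wilson intervals, and the dashed line is the 13.3% of all protein-coding genes. Ribosomal proteins stand at 60.6% and cytochromes P450 at 0.806%.

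Among the genes with the strongest TRB ranks in their lists were EIF3E and eIF6A of the translation factors. EIF3E is a subunit of initiation factor 3 and eIF6A a factor of the large ribosomal subunit. EIF3E had folds of 2.75 to 6.32 and eIF6A, with 4 teloboxes in its region, folds of 3.19 to 5.35. TOM20-2, a receptor for protein import into mitochondria, had folds of 3.40 to 6.88, and NRPB1, the largest subunit of RNA polymerase II, folds of 3.56 to 5.17. AGL16, first of the 6 MADS-box genes, had folds of 3.34 to 8.43 over the 12 lists. The first of the homeobox list, LD, which promotes flowering, had 4 teloboxes in a region of 1015 bp, no peak in FLAG-TRB3 replicate 1 and folds of 3.26 to 4.61 in the other lists.

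H3K4me3 at TRB-H3K4me3 genes was then followed through the genotypes as the length under H3K4me3 peaks in the 2000 bp from 500 bp before to 1500 bp behind the start site. In seedlings, the mean over these genes was 957 and 778 bp in trb1/2/3, 950 bp in jmj14-1 and 940 and 737 bp in Col-0. The trb1/2/3 mean of 868 ± 127 bp (SD, n = 2) lay 29.2 bp above that of Col-0, 838 ± 143 bp (n = 2), a difference smaller than the SD of either group. The Col-0 lists had chosen the genes, so it is a description. At 1089 marked genes with no peak of any TRB or of JMJ14 from 1000 bp before to 1500 bp behind the start site, which the same Col-0 lists chose, the means were 856 and 641 bp in trb1/2/3 and 828 and 616 bp in Col-0. The differences within replicate numbers were 17.5 and 40.8 bp at TRB-H3K4me3 genes and 27.7 and 24.9 bp at the genes without TRB peaks. Whether the shift differs between these sets of genes was not tested. Less the length at genes without TRB peaks in the same library, the difference of the group means was 2.85 bp. The difference of 29.2 bp turned to -72.2 bp without Col-0 replicate 2 and to -60.6 bp without trb1/2/3 replicate 1. The paper reports increased H3K4me3 signal in the triple mutant at TRB1 peaks that lack JMJ14. Length under called peaks does not measure the height of the signal, so a rise within peaks was not tested here.

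In TRB-ZF lines the length at TRB-H3K4me3 genes was 874, 856 and 942 bp with TRB1-ZF, 884 and 855 bp with TRB2-ZF and 889 and 862 bp with TRB3-ZF, and 894, 867 and 959 bp in fwa. All 4 groups overlapped. The mean with TRB1-ZF, 891 ± 45.3 bp, was 15.8 bp below that of fwa, 906 ± 47.1 bp (SD, n = 3 each, exact permutation p = 0.6, smallest possible 0.1). TRB2-ZF, 869 ± 20.6 bp (n = 2), was 37.0 bp below fwa (exact p = 0.4) and TRB3-ZF, 875 ± 19.3 bp (n = 2), 31.3 bp below (exact p = 0.4), with a smallest possible p of 0.2 for both. Libraries with the same replicate number deviated together, and with the replicate block the differences were -15.8 bp for TRB1-ZF (exact sign-flip p = 0.25), -10.98 bp for TRB2-ZF (exact p = 0.5) and -5.26 bp for TRB3-ZF (exact p = 0.5), each the smallest p that the pairs allow. All 7 paired differences were negative, -19.99 to -5.15 bp at TRB-H3K4me3 genes, and likewise -35.2 to -11.01 bp at marked genes with no TRB or JMJ14 peak. The 3 comparisons share the fwa libraries. Minus the length at marked genes with no TRB peak in the same library, the difference from fwa was 8.09 bp for TRB1-ZF, -0.164 bp for TRB2-ZF and 8.96 bp for TRB3-ZF. Without TRB1-ZF replicate 2 the TRB1-ZF difference was 1.58 bp and without fwa replicate 3 it was 10.2 bp.

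**Figure D5:**
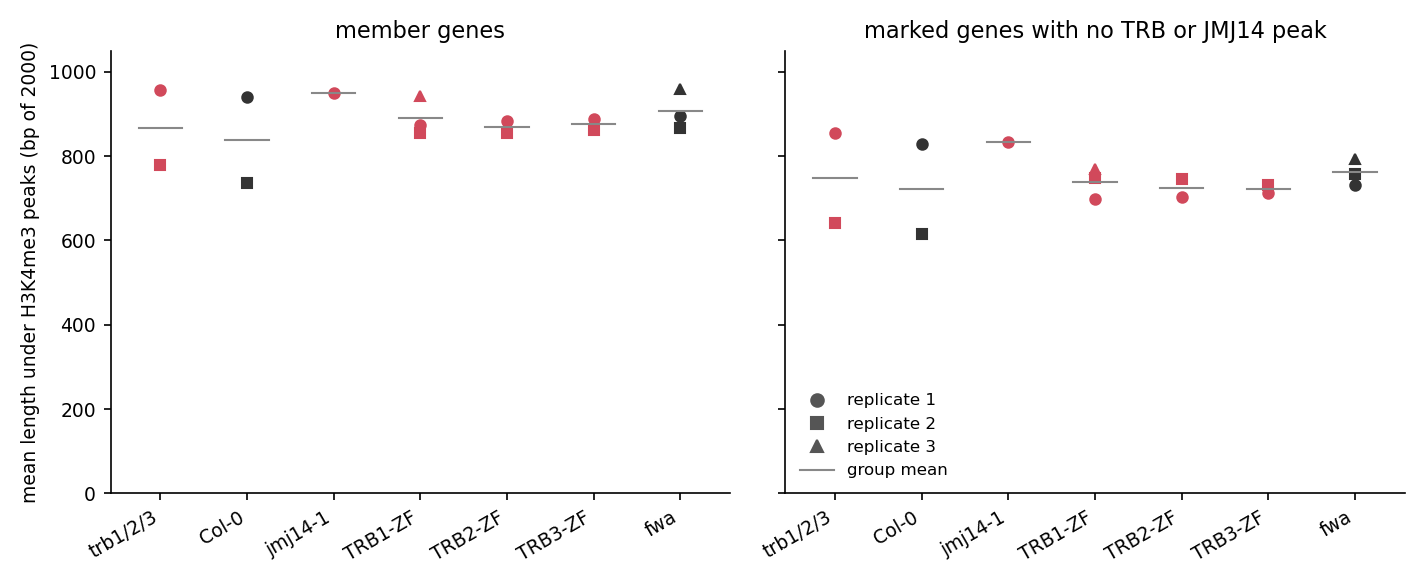
Mean length under H3K4me3 peaks in the 2000 bp around the start site (bp, vertical axis) in each library, for TRB-H3K4me3 genes on the left (titled member genes) and for 1089 marked genes with no TRB or JMJ14 peak on the right. Symbols give the replicate number and lines the group means. The libraries of trb1/2/3 (957 and 778 bp) and Col-0 (940 and 737 bp) differ by replicate number more than by genotype, on both sides.

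Single genes were then compared. A gene was counted where every library of one group was longer, or shorter, than every library of the other. Fewer libraries separate more easily, so a share can be set beside other genes in the same comparison but not beside another line. Replicate numbers were not used in the count. H3K4me3 was longer in trb1/2/3 than in Col-0 at 337 of 3644 TRB-H3K4me3 genes (9.25%, 8.35 to 10.2), against 15.2% of all genes tested and 14.97% of the genes without TRB peaks, and shorter at 71 (1.95%), against 2.25% of all genes. With TRB1-ZF it was longer than in fwa at 23 of 3643 TRB-H3K4me3 genes (0.631%), against 0.697% of all genes, and shorter at 107 (2.94%), against 2.97%. With TRB2-ZF it was longer at 52 (1.43%), against 1.33% of all genes, and shorter at 578 (15.9%, 14.7 to 17.1), against 13.0% of all genes and 14.9% of the genes without TRB peaks. With TRB3-ZF it was longer at 64 of 3642 (1.76%), against 1.60%, and shorter at 427 (11.7%, 10.7 to 12.8), against 10.9% of all genes and 11.8% of the genes without TRB peaks. The Col-0 lists were among the criteria of the choice, so nothing is read from the trb1/2/3 shares. Of the TRB-ZF shares, the interval of the one shorter with TRB2-ZF included the share of the genes without TRB peaks but not that of all genes, and the intervals of the others included that of all genes.

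H3K4me3 was still called almost everywhere. A peak overlapped 3844 and 3777 of the 3846 regions in the trb1/2/3 lists (99.9 and 98.2%), 3843 in jmj14-1, 98.4 to 99.6% in the TRB-ZF lists and 98.9 to 99.6% in the fwa lists. H3K4me3 was absent in both trb1/2/3 lists at 2 regions (0.0520%), against 0.160% of the TRB1 regions with H3K4me3 in both Col-0 lists, and in 1 or both at 69 (1.79%). One of the 2 lay at IQD21 (AT3G49260), a gene for a calmodulin-binding IQ-domain protein, with 0 and 0 bp under H3K4me3 peaks in trb1/2/3, 116 bp in jmj14-1 and 141 and 176 bp in Col-0. Around its start site the length was 307 and 0 bp in trb1/2/3 and 677 and 385 bp in Col-0, and H3K27me3 covered 0 and 66 bp of the region in trb1/2/3. The other, chr1:15650074-15650335, lies beyond the end of AT1G41880, a gene for a ribosomal protein of the L35Ae family, with 0 and 0 bp in trb1/2/3 and 93 and 44 bp in Col-0. It had no H3K4me3 peak in jmj14-1 either.

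H3K27me3 had been absent from the regions in Col-0 by choice and was rare in the other groups. It overlapped 23 and 20 regions in trb1/2/3 (0.598 and 0.520%, mean 0.559 ± 0.0552%, SD, n = 2), for which Col-0, at 0 by choice, is no reference. In both trb1/2/3 lists it was called at 12 regions (0.312%, 0.179 to 0.545), against 0.543% of the TRB1 regions with none in Col-0. In the TRB-ZF lists, which played no part in the choice, it overlapped 30 and 17 regions with TRB1-ZF (0.611 ± 0.239%), 20 and 17 with TRB2-ZF (0.481 ± 0.0552%) and 21 and 26 with TRB3-ZF (0.611 ± 0.0919%), and 27 and 20 in fwa (0.611 ± 0.129%, SD, n = 2 each). The differences from fwa were 0 points for TRB1-ZF (exact permutation p = 1), -0.130 points for TRB2-ZF (exact p = 0.667) and 0 points for TRB3-ZF (exact p = 1), with a smallest possible p of 0.33. Without the list that stands under both labels the difference was 0.169 points for TRB1-ZF (exact p = 0.667) and -0.0910 points for TRB2-ZF (exact p = 1).

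The longest H3K27me3 cover in both trb1/2/3 libraries was on chr1:22074005-22074781, in an exon of AT1G59970, a gene for a matrixin-family metalloprotease. H3K27me3 covered 622 and 608 of its 777 bp in trb1/2/3 and none in Col-0 or fwa. It also covered 667 bp in TRB3-ZF replicate 2 and none in TRB3-ZF replicate 1. H3K4me3 peaks covered 641 and 560 bp of the same region in trb1/2/3 and 698 and 668 bp in Col-0, so both marks were called over it in trb1/2/3. At AT1G12020, an uncharacterised gene, H3K27me3 covered the whole 397 bp in both trb1/2/3 libraries and 159 and 0 bp in fwa. At ATHB-15, a class III homeodomain-leucine zipper gene of vascular development, it covered 351 and 301 of 434 bp in trb1/2/3, and H3K4me3 covered 381 and 184 bp in trb1/2/3 and 424 and 313 bp in Col-0. At AT2G43800, a formin gene, H3K27me3 covered 282 and 301 bp in trb1/2/3, where H3K4me3 covered 264 and 2 bp, against 294 and 125 bp in Col-0. H3K4me3 cover there was low in replicate 2 of the other groups too. It was 0 bp in fwa and TRB3-ZF, 68 bp in TRB1-ZF and 56 bp in TRB2-ZF. Their other replicates had 251 to 306 bp.

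JMJ14 was missing from these regions in floral tissue by choice, and few had a peak in the leaf libraries. Myc-JMJ14 peaks overlapped 50 and 82 of the 3846 regions with TRB1-ZF (1.30 and 2.13%), 44 with TRB2-ZF (1.14%) and 37 with TRB3-ZF (0.962%), and 15 without a TRB-ZF (0.390%). Of the regions with JMJ14, the shares were 3.02 and 11.6% with TRB1-ZF, 2.18% with TRB2-ZF and 19.98% with TRB3-ZF. Without a TRB-ZF their share was 0.186%, below the 0.390% of TRB-H3K4me3 regions. At regions with H3K27me3 and at unmarked regions, the share was below that of TRB-H3K4me3 regions in each library. The classes differ in width, and these shares are a description. The lists differed in length as well, with 478 and 1032 peaks for TRB1-ZF, 530 for TRB2-ZF and 1011 for TRB3-ZF, and 296 without a TRB-ZF, and the part of list length in these counts was not tested. Which background each of these counts belongs to rests on the labels, from which the names of 4 of the lists differ. No Myc-JMJ14 library had a peak at 3723 regions, 66 had one in 1 library and 4 in all 5. These 4 lay at NUDT21, a Nudix hydrolase gene, at DIC2, a mitochondrial dicarboxylate carrier gene, and at the uncharacterised genes AT3G57450 and AT2G23118. The NUDT21 region, 2087 bp wide, was covered for 1297, 1391, 1397 and 459 bp in the libraries labelled TRB1-ZF (both), TRB2-ZF and TRB3-ZF and for 1476 bp in the one labelled as without a TRB-ZF. H3K4me3 covered 1475 and 1037 bp of it in trb1/2/3 and 1496 and 1380 bp in Col-0. Myc-JMJ14 peaks at these 4 genes thus occurred in each of the 5 libraries, whichever background it has. Neither FLAG-JMJ14 list had a peak there, and the Myc ChIP of Col-0 without the transgene was not used here. Whether these peaks are unspecific signal was therefore not tested.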

How the data were processed

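Peak lists of 46 ChIP-seq libraries were analysed. By the authors, reads were cleaned with Trim_galore and mapped with Bowtie 2 to TAIR10 at unique sites without mismatch. SAMtools 1.9 removed duplicates and MACS2 2.1.1 gave the peaks, from which the authors took out sites seen in several Col-0 controls, so that true regions can be missing. The control of the calls is not given in the sources used here. The deposited fold enrichment over background was read as a ratio within its own list, the deposited −log10 q served for a stricter threshold of 10, and the deposited summit offset gave mean summits. Bisulfite PCR of the FWA promoter was not used here, and RNA was not analysed here. Organelle peaks and repeated intervals were dropped.

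Python 3.11.15 with scipy 1.17.1 and numpy 2.4.6 served for regions, motif matches and tests, and matplotlib 3.10.9 for figures. Sequence came from TAIR10.1 of RefSeq, within whose chromosome lengths all peaks end. The scripts were tested on simulated data. Shares have 95% Wilson intervals, differences of shares Newcombe intervals, and groups of libraries exact permutation tests. Libraries of the TRB-ZF lines and fwa with the same replicate number deviated together from their group means, so paired values are given. For H3K4me3, r across genes was 0.657 to 0.877 in 13 pairs and -0.877 to 0.736 with other numbers. In a group of 2 libraries the deviations are equal and opposite, so negative values with other numbers are partly fixed. As other numbers reached 0.736, the number need not be the true block. Named genes are the 8 regions with the strongest TRB ranks, the 5 with the most TTAGGG, the 2 strongest of each list, up to 4 each with the longest H3K27me3 in trb1/2/3, with lost H3K4me3 and with Myc-JMJ14 in most libraries, and the 3 narrowest. Members, lists and tests were chosen with earlier results of these data known. Alternatives were stricter peaks, equally long lists, 3 of 4 lists, an overlap of at least 50%, other windows and leaving out each library.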

Additional observations from a re-analysis of the deposited data

How the results depend on the processing

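The number of regions depended on the peak calls. It was 1577 with FLAG peaks of a −log10 q of at least 10, 1091 with every FLAG-TRB list cut to the length of the shortest, 2204 with 3 of 4 lists and 2510 with an overlap of at least 50%. Leaving out 1 library each gave 2459 (without FLAG-TRB3 replicate 4) to 4145. Under the same 4 settings TTAGGG was in 78.5, 81.5, 69.6 and 67.6% of the regions, and leaving out libraries gave 59.5 to 71.7%. TTTAGGG was in 31.3%, and TTAGGG within 200 bp of the summit in 40.3%. Summits in promoters and 5′ UTRs were 95.9, 96.6 and 93.7% under the first 3 settings, 90.2% with promoters of 500 bp, and 91.1 to 93.0% when libraries were left out. The cause of these shifts was not tested.

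H3K4me3 lengths are limited by few libraries of unknown depth. Without 1 library each, trb1/2/3 minus Col-0 ran from -72.2 to 131 bp (-72.2 without Col-0 replicate 2, -60.6 without trb1/2/3 replicate 1), TRB1-ZF minus fwa from -41.4 to 10.2 bp (1.58 without TRB1-ZF replicate 2, 10.2 without fwa replicate 3), TRB2-ZF from -56.9 to -10.98 bp and TRB3-ZF from -51.2 to -5.26 bp. Minus marked genes with no TRB peak, trb1/2/3 stood at 2.85 bp, TRB1-ZF at 8.09 bp, TRB2-ZF at -0.164 bp and TRB3-ZF at 8.96 bp. The paired difference (replicate block) of trb1/2/3 and Col-0 was 29.2 bp, the same as without pairs. Their 2 pairs share only a number (r = 0.409 across genes). With the block TRB2-ZF minus fwa was -10.98 bp, against -37.0 bp without it, and TRB3-ZF minus fwa -5.26 bp, against -31.3 bp. No test here could pass a threshold, so none bears on stability. For H3K27me3, trb1/2/3 overlapped 0.221% of the regions with a −log10 q of at least 10 and 0.182% with at least 50% of the region covered. This last setting gave 0.0130 points for TRB2-ZF minus fwa. Of 122 alternatives, 7 turned a direction and 25 moved a count or share of regions. Many of the 122 concern a count, a share or a difference of 0, which have no direction to turn.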
